A study of Mus musculus with 23 samples.

Results

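The genes examined here carry the symbols of the proteins of the mitochondrial ribosome. They were taken from the gene table as all protein-coding genes whose symbol starts with Mrpl or Mrps followed by a digit, without use of any measured value. The rule found 78 of 56748 listed genes, 49 named for the large subunit (Mrpl) and 29 named for the small subunit (Mrps). By structure 51 of them belong to the large and 26 to the small subunit, since Mrps18a and Mrps30 sit in the large subunit in spite of their symbol, and Mrps36 is no ribosomal protein but a component of the 2-oxoglutarate dehydrogenase complex. Mrps36 met the rule and is counted among the members. Another 6 genes with such symbols are processed pseudogenes and were left out.

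Mitochondria keep a small genome of their own and translate its messages on a dedicated ribosome. That ribosome combines RNAs read from the mitochondrial genome with proteins that are all encoded in the nucleus, made in the cytosol and imported. Many of these proteins descend from those of bacterial ribosomes, and the others were added during the evolution of mitochondria. Its only products in mammals are core subunits of the respiratory chain and of the ATP synthase, so that both genomes must be expressed for oxidative phosphorylation.

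The study grew melanoma tumors in DBA/2J mice aged 6 to 8 weeks by placing B16-F1 cells, a mouse melanoma line, under the skin, and then treated the tumors with PTX (pentoxifylline, a methylxanthine), NCTD (norcantharidin, a derivative of cantharidin) or MIX, which is both drugs together. The dose was 60 mg/kg for PTX, and for NCTD it was 3 mg/kg. In the intraperitoneal (IP) arm the control mice received saline and CONTROL_IP, PTX_IP, NCTD_IP and MIX_IP hold 2 tumors each. In the intratumoral (IT) arm the control mice received DMSO, and CONTROL_IT, NCTD_IT and MIX_IT hold 4 tumors each and PTX_IT holds 3. All tumors carry the same cell line, and every host is of the same strain. Route, vehicle and any batch that goes with the route cannot be told apart, so treated tumors were set against the control tumors of the same route.

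RNA was read from the 3′ end of polyadenylated transcripts, and a tumor had between 2861578 and 6702374 reads assigned to genes. The 78 genes held between 0.413% and 0.657% of these reads, or 13188 to 34555 reads in a tumor. Levels are given as CPM, the count of a gene relative to the library total after TMM scaling, a correction for library composition. In such bulk samples, fewer cells of a type and less RNA per cell cannot be told apart. Melanocyte markers (Pmel, Mlana, Tyr, Tyrp1, Dct, Sox10 and Mitf) summed to between 15172 and 37030 CPM in every tumor, so the labelled tumor type was present throughout.

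Sex-linked transcripts differed between the IT groups. Xist, which is transcribed from the inactive X chromosome of female cells, lay between 5.13 and 13.4 CPM in the 4 NCTD_IT tumors and between 1.29 and 11.4 CPM in the 3 PTX_IT tumors. It lay between 0 and 0.571 CPM in CONTROL_IT and was at 0 counts in all 4 MIX_IT tumors. Ddx3y, a gene of the Y chromosome, lay between 1.03 and 8.99 CPM in CONTROL_IT and between 6.82 and 15.4 CPM in MIX_IT. It was at no more than 1 count in any NCTD_IT or PTX_IT tumor. The labels give no sex, and the study describes its treatment groups as matched for sex, which these transcripts go against in the IT arm. For NCTD_IT and PTX_IT against CONTROL_IT, the drug and these sex-linked transcripts therefore cannot be told apart, while Xist was at or near 0 and Ddx3y was present in both CONTROL_IT and MIX_IT. In the IP arm, 1 of the 8 tumors, replicate 2 of CONTROL_IP, carried Xist (8.29 CPM).

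Nearly all of the mitochondrial ribosomal protein genes were measured in every tumor. Of the 78, 69 reached at least 10 CPM in each of the 23 tumors and 15 had a mean of at least 100 CPM. After edgeR's filter on low counts, 74 could be tested in either route, 47 named for the large and 27 for the small subunit (49 and 24 by structure), with a median level of 56.7 CPM. The median level was 66.5 CPM in the large and 49.5 CPM in the small subunit, and 23.99 and 18.9 CPM per kilobase of listed gene length.

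The leading transcript on the CPM scale was Mrpl51, a mitochondria-specific protein of the large subunit, with a mean of 328 CPM. Mrpl17 and Mrpl13, both of bacterial descent, followed with 221 and 193 CPM. Together these 3 genes held 14.1% of the summed CPM of all members. Per kilobase of gene length Mrpl51 ranked 9, Mrpl17 ranked 30 and Mrpl13 ranked 33, and the first was Mrpl34, another large-subunit protein of bacterial descent, with 205 CPM per kilobase. A read from a 3′ library stands for a transcript end rather than a stretch of its length, and the 2 scales ordered the genes differently (Spearman rank correlation 0.681 across 76 members, as a description).

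The lowest tested members on the CPM scale were Mrps27 (5.99 CPM), Mrps18a (10.2 CPM) and Mrpl1 (11.6 CPM), the last of which belongs to the mobile L1 stalk of the large subunit. They also ranked 72, 73 and 74 per kilobase. Below them, 4 members could not be tested. Mrps34, of the small subunit, and Mrpl53, of the large subunit, had 0 counts in all 23 tumors, where 3 counts correspond to between 0.448 and 1.05 CPM. Mrps18b had 5 counts and Mrpl24 had 135 counts over all tumors. In the current GENCODE annotation the last 500 transcribed bases of Mrps34, Mrps18b and Mrpl24 lie wholly within exons of a gene on the opposite strand, and those of Mrpl53 overlap none. The same full overlap holds for Mrps7, Mrps14 and Mrps25, which were among the tested members. The part that counting rules for overlapping genes play in these 4 levels was not tested.

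The pseudogene Mrpl23-ps1 was counted at 53.0 CPM on average, near the 70.8 CPM of its parent gene Mrpl23, and reads of these 2 near-identical sequences may be split between them. The other 5 pseudogenes lay between 0 and 3.59 CPM.

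NRF1 and the ETS factor GABPA are transcription factors known to bind promoters of many nuclear genes for mitochondrial proteins, and short letter cores for them were searched around the start sites. In the 300 bases around the annotated start (250 before, 50 after; GRCm39, GENCODE canonical transcripts), the ETS core CCGGAAG occurred on either strand in 24 of 78 members (30.8%), against 10.3% of 21770 protein-coding genes and 16.1% of the 11127 protein-coding genes tested in the IT arm. The NRF1 core CGCANGCG, where N is any base, occurred in 19 members (24.4%), against 10.3% and 15.9%. Either of these was present in 36 members. The YY1 core AAGATGGCG occurred in 4 members (5.13%, against 1.34% and 2.26%) and the E-box CACGTG in 5 (6.41%, against 7.81% and 10.4%). Such matches are descriptions of letters and not measured binding.

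The 120 bases just upstream of the annotated start are shown for 5 members, so that the letters can be read beside their values. Mrps22 was shown by the rule for named genes. Mrpl30, Mrps21, Mrpl44 and Mrpl51 were chosen after their values were seen, as members lower in NCTD_IT (Mrpl30, Mrps21), higher there (Mrpl44) or most abundant (Mrpl51). Capitals mark the ETS core in Mrps22 and Mrpl51 and the NRF1 core, in either orientation, in Mrpl30, Mrps21 and Mrpl44. Each sequence is written 5′ to 3′ on the strand of its gene, and the coordinates are GRCm39: Mrps22 chr9:98483721-98483840 (minus strand), Mrpl30 chr1:37929438-37929557 (plus), Mrps21 chr3:95778832-95778951 (minus), Mrpl44 chr1:79753615-79753734 (plus) and Mrpl51 chr6:125169004-125169123 (plus).
Mrps22: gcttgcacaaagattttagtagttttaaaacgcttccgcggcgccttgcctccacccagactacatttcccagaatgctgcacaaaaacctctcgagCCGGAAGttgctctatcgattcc
Mrpl30: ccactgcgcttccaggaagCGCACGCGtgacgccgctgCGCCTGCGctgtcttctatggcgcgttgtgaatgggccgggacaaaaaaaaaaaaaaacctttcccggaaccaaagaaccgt
Mrps21: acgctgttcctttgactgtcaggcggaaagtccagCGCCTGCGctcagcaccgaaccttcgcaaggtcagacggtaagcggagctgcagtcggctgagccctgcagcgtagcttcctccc
Mrpl44: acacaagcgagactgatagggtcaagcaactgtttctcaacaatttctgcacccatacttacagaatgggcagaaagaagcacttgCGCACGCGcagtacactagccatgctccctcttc
Mrpl51: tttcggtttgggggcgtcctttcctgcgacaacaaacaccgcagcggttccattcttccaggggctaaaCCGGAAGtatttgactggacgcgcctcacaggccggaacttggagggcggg
Mrpl30 carries the NRF1 core at 2 places, starting 101 and 82 bases before the start site, and the ETS core of Mrps22 starts 23 bases before it.

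The summed level of all members was lowest in the NCTD_IT tumors. They held 4589, 4103, 5308 and 4171 CPM, and the CONTROL_IT tumors held 6767, 5371, 6022 and 6055 CPM. Every NCTD_IT tumor lay below every CONTROL_IT tumor. The PTX_IT tumors held 4789, 4182 and 5928 CPM and the MIX_IT tumors held 5778, 4799.6, 4899.8 and 5745 CPM, and both ranges reached into that of CONTROL_IT. In the IP arm the sums were 5283 and 4861 CPM in CONTROL_IP, 4961 and 6180 CPM in PTX_IP, 5721 and 5149 CPM in NCTD_IP, and 5358 and 5348 CPM in MIX_IP. At least 1 PTX_IP and 1 NCTD_IP tumor lay between the 2 IP controls, and both MIX_IP tumors lay above them. The CONTROL_IT mean of 6054 ± 570.1 CPM (SD, n = 4) was the highest of the 8 groups, against 5072 ± 299 CPM (SD, n = 2) in CONTROL_IP.

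**Figure D1:**
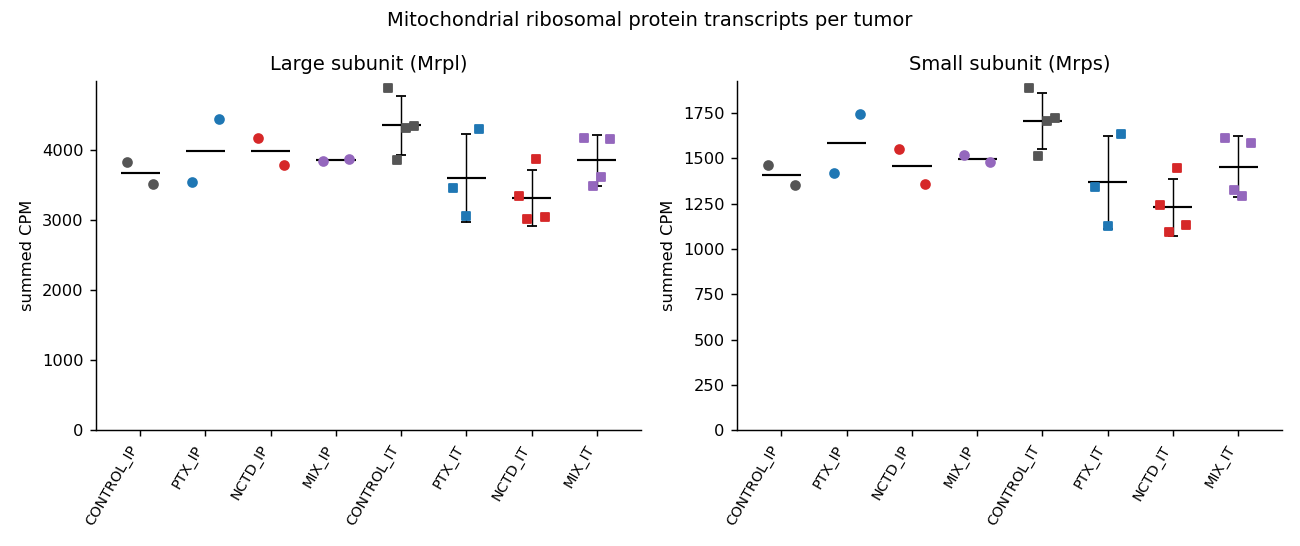
Summed CPM of the large-subunit genes (left) and the small-subunit genes (right) in each of the 23 tumors, with 1 point a tumor, circles for the IP and squares for the IT arm, a line at the group mean and, for groups of 3 or 4 tumors, bars of 1 SD. NCTD_IT is the lowest group in both subunits, and PTX_IT spans a wide range, from 3056 to 4291 CPM in the large subunit.

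The balance between the subunits moved within narrow bounds. The ratio of the large-subunit to the small-subunit sum lay between 2.49 and 2.79 over the 23 tumors. It was 2.55 ± 0.0323 (SD, n = 4) in CONTROL_IT and 2.697 ± 0.0347 (SD, n = 4) in NCTD_IT, where all 4 tumors (2.67 to 2.75) lay above all 4 controls (2.52 to 2.59). In PTX_IT it was 2.64 ± 0.0702 (SD, n = 3) and in MIX_IT 2.65 ± 0.0926 (SD, n = 4).

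In NCTD_IT the mitochondrial ribosomal protein genes mostly had lower levels than in CONTROL_IT. Of the 74 tested, 66 had a lower and 8 a higher fold change, and 32 were lower at an unadjusted p below 0.05 (43.2%, against 10% of all 12480 genes tested), with none higher (11.6% of all genes). The median log2 fold change was -0.40 in the members and 0.03 over all genes. Every NCTD_IT tumor was below every CONTROL_IT tumor for 26 members, a pattern seen in 9.82% of all genes, and the reverse occurred for none, against 7.04% of all genes. The median was -0.40 in the genes named for the large (20 of 47 lower at this p) and -0.40 in those named for the small subunit (12 of 27), and -0.46 and -0.39 with 49 and 24 genes assigned by structure. Mrps36, which is in neither, had -0.75 (SE 0.35). Proteins of bacterial descent had a median of -0.40 (45 genes) and mitochondria-specific ones of -0.47 (28 genes).

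**Figure D2:**
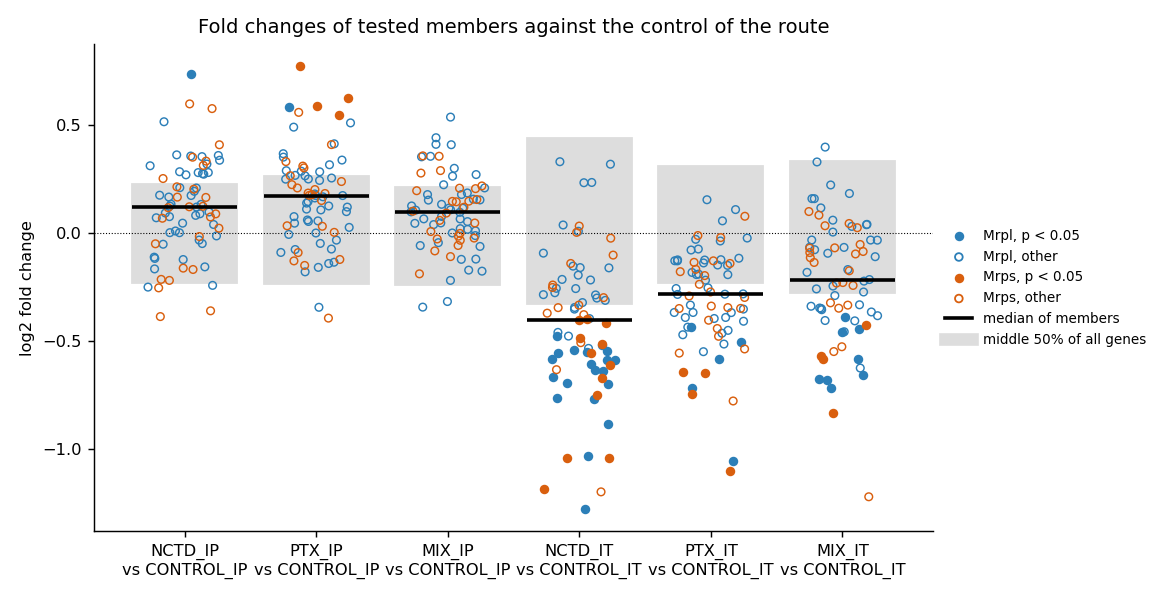
Log2 fold change of each of the 74 tested members in the 6 comparisons with the control of the route, from edgeR, in blue for the large and orange for the small subunit, filled at an unadjusted p below 0.05, thick lines at the median of the members and grey boxes for the middle 50% of all genes tested. The IT medians lie at -0.40 (NCTD_IT), -0.28 (PTX_IT) and -0.22 (MIX_IT), and the IP medians at 0.12, 0.17 and 0.10 for NCTD_IP, PTX_IP and MIX_IP.

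Mrps22, a mitochondria-specific protein of the small subunit, was the only member past an adjusted p of 0.05 (edgeR quasi-likelihood test with Benjamini-Hochberg adjustment over all genes, which called 1.37% of all genes). Its levels were 63.7, 50.02, 44.9 and 61.8 CPM in CONTROL_IT and 21.3, 22.8, 30.1 and 20.9 CPM in NCTD_IT. All 4 treated tumors lay well below all 4 controls. The log2 fold change was -1.18 (SE 0.27, adjusted p = 0.0414). Over the last 500 bases, 39.4% of the Mrps22 transcript overlaps exons of Copb2 on the opposite strand, and Copb2 itself had a log2 fold change of -0.20 (SE 0.15, adjusted p = 0.454). The edgeR call was lost in 7 of the 8 fits that left out 1 tumor of these groups, with a log2 fold change between -1.30 and -1.11, and DESeq2 gave an adjusted p of 7.85e-05. With Xist as a term in the model the log2 fold change was -0.07 (unadjusted p = 0.894 from edgeR).

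Mrpl30, a large-subunit protein of bacterial descent, came next. It lay at 148, 127, 133 and 146 CPM in CONTROL_IT and at 63.3, 94.9, 95.4 and 66.0 CPM in NCTD_IT, with no overlap between the groups. Its log2 fold change was -0.76 (SE 0.18, edgeR adjusted p = 0.0522). The 2 members with the smallest p among those with higher values were Mrpl44, which has a fold related to ribonuclease III, with 0.32 (SE 0.19, adjusted p = 0.341), and Mrpl50, with 0.33 (SE 0.20, adjusted p = 0.353).

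The number of members past the adjusted threshold depended on the test. DESeq2, the tool the study names, applied to these 2 groups called 18 members (24%, against 10.6% of all genes), 18 of them lower. edgeR called 12 with only the 2 groups in the fit (16.2%, against 8.4%), 14 with all 23 tumors in the fit (18.7%, against 5.8%) and 10 without a filter on low counts (13.2%, against 4.43%). When Xist (log2 CPM) entered the edgeR model as a term, 0 members were called, 2 were higher at an unadjusted p below 0.05 (3.09% of all genes) and none lower (2.54%), and the median log2 fold change was 0.21. Xist was at or near 0 in every CONTROL_IT tumor and present in every NCTD_IT and PTX_IT tumor. The term therefore nearly coincides with drug, and this fit cannot separate the 2.

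Markers of cells other than melanoma cells also moved in NCTD_IT. Of 6 fibroblast genes 5 were higher at an unadjusted p below 0.05, of 4 endothelial genes 4, and of 8 leukocyte genes 2. Of 4 erythroid genes 3 were lower and of 7 melanocyte genes 2. Over all genes tested, 11.6% were higher and 10% lower at this p. Of 2 skeletal muscle genes and 1 adipocyte gene tested, 0 and 1 were higher, and no keratinocyte gene could be tested. The summed fibroblast markers lay between 384 and 1630 CPM in NCTD_IT and between 108 and 371 CPM in CONTROL_IT, and the summed melanocyte markers between 18696 and 26657 CPM and between 26327 and 31850 CPM. Library measures moved too. Genes annotated as rRNA took 1.35% to 1.95% of reads in NCTD_IT and 0.862% to 1.12% in CONTROL_IT, and the 20 most abundant genes took 13.2% to 13.7% in replicates 17, 18 and 20 of NCTD_IT, 10.2% in replicate 19 and 9.83% to 10.6% in CONTROL_IT. The part of these markers and measures in the lower level of the mitochondrial ribosomal protein genes was not tested.

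In PTX_IT most members also had lower levels than in CONTROL_IT. Of the 74 tested members, 70 had a lower fold change and 9 were lower at an unadjusted p below 0.05 (12.2%, against 2.16% of all genes), with none higher (4.18% of all genes). The median was -0.28, against 0.02 over all genes. For 15 members all 3 PTX_IT tumors lay below all 4 controls, against 4.1% of all genes, and for none above (3.81%). No member and no other gene passed the adjusted threshold in this comparison, in which 792 genes passed an unadjusted p of 0.05.

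Mrps22 again had the smallest p. It lay at 25.8, 12.1 and 38.6 CPM in PTX_IT, all below the lowest control value of 44.9 CPM, and had a log2 fold change of -1.10 (SE 0.29, edgeR adjusted p = 0.758). Mrps12, whose bacterial counterpart sits at the decoding site of the small subunit, lay at 33.1, 30.4 and 40.1 CPM in PTX_IT and at 74.7, 41.5, 63.6 and 52.9 CPM in CONTROL_IT. These groups did not overlap either, but the highest PTX_IT tumor came close to the lowest control. Its log2 fold change was -0.74 (SE 0.21, edgeR adjusted p = 0.758). Among the higher values, Mrpl37 had 0.15 (SE 0.21) and Mrpl44 had 0.11 (SE 0.20).

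Replicate 16 of PTX_IT stood apart from the other PTX_IT tumors, with 5928 CPM over all members against 4182 and 4789 CPM. It also had the lowest Xist of the group (1.29 CPM) and 262 CPM of fibroblast markers against 677 and 815 CPM. Its rRNA share was 0.691%, against 1.79% and 1.75%, and its share of the 20 most abundant genes 9.47%, against 12.5% and 12.4%. Without it, 26 members were lower at an unadjusted p below 0.05 (34.7%, against 6.89% of all genes) and the median was -0.45. Without replicate 15, 4 were lower (5.33%, against 0.68%) and the median was -0.17. With Xist as a term in the model the median was 0.18. Of the 6 fibroblast genes 2 were higher in PTX_IT at an unadjusted p below 0.05, against 4.18% of all genes. The part of the fibroblast genes, like that of the library measures, was not tested.

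In MIX_IT 57 of 74 members had a lower fold change. Here the sex-linked transcripts were of the same kind as in CONTROL_IT but not at the same level, with a mean of 10.02 CPM for Ddx3y against 5.03 CPM. At an unadjusted p below 0.05, 12 were lower (16.2%, against 5.11% of all genes) and none was higher (7.88% of all genes). The median was -0.22, against 0.01 over all genes, with -0.22 in the large and -0.18 in the small subunit. For 10 members all MIX_IT tumors lay below all controls (5.16% of all genes), and for none above (4.79%). No member passed the adjusted threshold, at which edgeR called 0 genes in all (1622 passed an unadjusted p of 0.05), and DESeq2 called 1 member (1.33%, against 1.92% of all genes).

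Mrpl10, which anchors the stalk of the large subunit, and Mrpl40, a mitochondria-specific protein, had the smallest p among the lower members. Mrpl10 lay at 27.7, 24.8, 26.1 and 27.2 CPM in CONTROL_IT and at 18.99, 15.95, 18.5 and 12.5 CPM in MIX_IT, with a log2 fold change of -0.68 (SE 0.22, edgeR adjusted p = 0.203). The 4 controls were close together and all above the treated tumors. Mrpl40 lay at 94.2, 70.0, 82.2 and 82.9 CPM in CONTROL_IT and at 50.8, 53.2, 39.4 and 61.0 CPM in MIX_IT, again without overlap, with a log2 fold change of -0.68 (SE 0.22, edgeR adjusted p = 0.204).

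Mrpl44 had the smallest p among the higher members. It lay at 159, 129.7, 123 and 114 CPM in CONTROL_IT and at 179, 124, 193 and 192 CPM in MIX_IT. The lowest MIX_IT tumor fell among the controls and the other 3 above them. Its log2 fold change was 0.40 (SE 0.19, edgeR adjusted p = 0.389). Mrpl55 had 0.33 (SE 0.21), between 0.09 and 0.48 when each tumor was left out in turn. Replicate 23 of MIX_IT held 8502 CPM of fibroblast markers, against 493 to 1870 CPM in the other MIX_IT tumors. Leaving out each tumor of these groups in turn gave 8 to 15 members at an unadjusted p below 0.05 and medians from -0.27 to -0.15. Over all genes, 3.2% to 6.59% were lower and 4.9% to 9.29% higher at this p in these fits. The 6 fibroblast genes, 3 of 4 endothelial genes and the 1 adipocyte gene tested were higher in MIX_IT at this p, and 2 of 7 melanocyte genes were lower. With all tumors in the fit, 7.88% of all genes were higher and 5.11% lower. The part of other cell types was not tested.

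**Figure D3:**
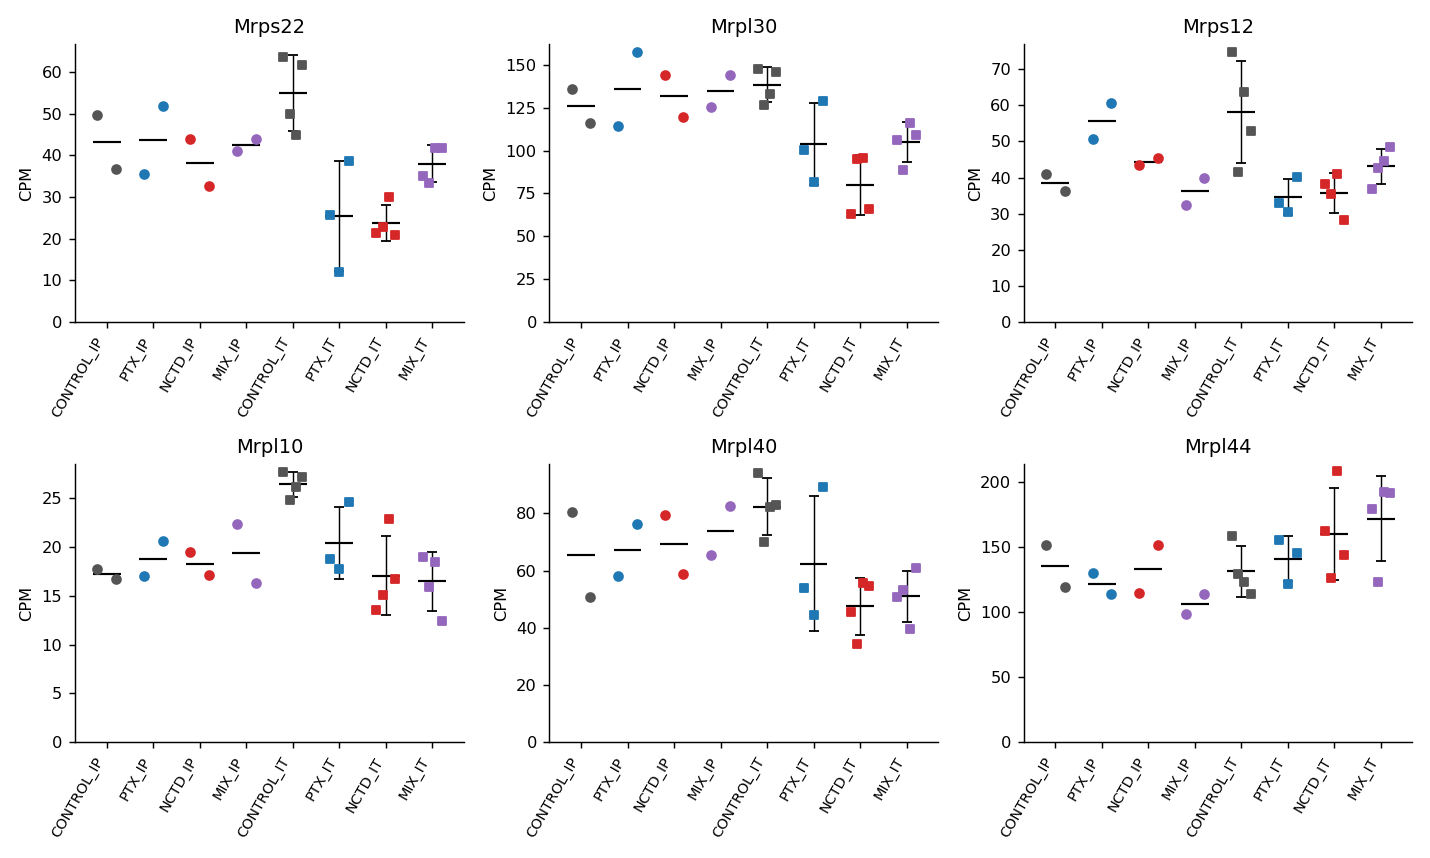
CPM of 6 members named in the text in each of the 23 tumors, grouped as on the x axis, with circles for the IP and squares for the IT arm, a line at the group mean and bars of 1 SD for groups of 3 or 4 tumors. Mrps22 shows a CONTROL_IT group between 44.9 and 63.7 CPM above all other IT tumors, and Mrpl44 shows MIX_IT and NCTD_IT values that reach above CONTROL_IT.

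The 3 IT comparisons share the CONTROL_IT tumors, so their counts are not independent of each other. Across them, 55 of 74 members had a lower fold change in all 3 (74.3%, against 30.8% of all genes) and 3 (Mrpl1, Mrpl37 and Mrpl44) a higher one in all 3 (4.05%, against 33.7%). Lower at an unadjusted p below 0.05 in all 3 were Mrpl14, Mrpl57, Mrps12 and Mrps24 (5.41%, against 0.761% of all genes). Of these, Mrps24, a small-subunit protein of bacterial descent, had log2 fold changes of -1.04 (SE 0.26) in NCTD_IT, -0.65 (SE 0.28) in PTX_IT and -0.57 (SE 0.25) in MIX_IT, with edgeR adjusted p-values of 0.0542, 0.785 and 0.356. It and the other 3 were named after their values were seen, apart from Mrps12.

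Comparisons among the treated IT groups do not use those controls. NCTD_IT against PTX_IT, which both carried Xist, had a median of -0.11 with 54 of 74 members lower, and 1 member higher at an unadjusted p below 0.05 (1.35%, against 2.15% of all genes). MIX_IT against NCTD_IT had a median of 0.21, with 63 of 74 members higher and 3 higher at this p (4.05%, against 3.04% of all genes). Mrps22 had a log2 fold change of 0.66 (SE 0.26, edgeR adjusted p = 0.803) there, with 34.99, 33.5, 41.8 and 41.7 CPM in MIX_IT, all above the 4 NCTD_IT tumors. MIX_IT against PTX_IT had a median of 0.08 and 2 members higher (2.7%, against 2.07% of all genes) and 1 lower (1.35%, against 1.68%). Xist was at 0 counts in MIX_IT and present in NCTD_IT and PTX_IT. In both comparisons of MIX_IT with a single drug, the drugs and the sex-linked transcripts therefore cannot be told apart. No member passed the adjusted threshold in these 3 comparisons, against 0.00801% of all genes in MIX_IT against NCTD_IT.

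The combination in the IT arm was also set against the sum of its drugs. On the log2 scale MIX_IT was higher than the sum of the PTX_IT and NCTD_IT differences for 67 of 74 members, with a median departure of 0.48, against -0.01 over all genes. At an unadjusted p below 0.05, 18 members were higher (24.3%, against 4.92% of all genes) and none lower (6.39%). Mrps22 had a departure of 1.76 (SE 0.39, edgeR adjusted p = 0.308), the smallest p of the members. None passed the adjusted threshold, at which 5 genes (0.0401%) were called. This contrast sets the 2 groups without Xist against the 2 with it, so drug and sex-linked transcripts cannot be told apart in it.

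In the IP arm the medians lay on the other side of 0. The 3 comparisons share the 2 CONTROL_IP tumors, so their counts are not independent of each other. Without replicate 2 of CONTROL_IP, the IP tumor with Xist, the medians in NCTD_IP, PTX_IP and MIX_IP were 0.065, 0.112 and 0.057. Without replicate 1 they were 0.172, 0.212 and 0.116. NCTD_IP had a median log2 fold change of 0.12, between 0.04 and 0.21 when each tumor was left out, with 54 of 74 members higher and 1 higher at an unadjusted p below 0.05 (1.35%, against 1.92% of all genes). PTX_IP had a median of 0.17, with 57 higher and 5 higher at this p (6.76%, against 3% of all genes). MIX_IP had a median of 0.10, between 0.06 and 0.12 when each tumor was left out, with 53 higher and none past this p (1.39% of all genes). No member was lower at this p in any of the 3, against 1.67%, 2.3% and 1.55% of all genes. Both treated tumors lay above both controls for 23, 21 and 18 members in NCTD_IP, PTX_IP and MIX_IP (15.9%, 15.2% and 17.2% of all genes) and below both for 3, 2 and 5 (18.2%, 16.9% and 18.7%). At an adjusted p below 0.05 edgeR called 0 genes in each, while 446, 659 and 365 genes passed an unadjusted p of 0.05, and DESeq2 called 0 members.

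The member with the smallest p in NCTD_IP was Mrpl37, a mitochondria-specific large-subunit protein. It lay at 29.6 and 41.8 CPM in CONTROL_IP and at 61.0 and 57.5 CPM in NCTD_IP, both above both controls, with a log2 fold change of 0.73 (SE 0.22, edgeR adjusted p = 0.999). Mrpl50 followed with 0.51 (SE 0.24), and the lower members with the smallest p were Mrps31 with -0.36 (SE 0.23) and Mrps33 with -0.39 (SE 0.29). Single tumors moved these, from -0.61 to -0.13 for Mrps31 and from -0.74 to -0.08 for Mrps33.

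In PTX_IP the leading members were Mrps5 and Mrps9, small-subunit proteins of bacterial descent. Mrps5 lay at 32.6 and 28.5 CPM in CONTROL_IP and at 46.2 and 46.9 CPM in PTX_IP, with a log2 fold change of 0.62 (SE 0.19, edgeR adjusted p = 0.906). Mrps9 lay at 22.2 and 25.9 CPM against 32.4 and 49.2 CPM, with 0.77 (SE 0.25, edgeR adjusted p = 0.906). Both treated tumors stood above both controls for each gene. On the lower side Mrpl39 had -0.34 (SE 0.23) and Mrps33 had -0.39 (SE 0.28), with ranges of -0.58 to -0.07 and -0.62 to -0.14 when each tumor was left out, and Mrps9 ranged from 0.43 to 1.04. The count of 5 rested on single tumors. Without replicate 4 of PTX_IP, 1 member was higher (3.84% of all genes) and 1 lower (4.11%). Without its replicate 3, 11 were higher (5.31% of all genes) and none lower (7.82%). The median lay between 0.01 and 0.28 when each tumor was left out in turn.

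In MIX_IP the smallest p on the higher side belonged to Mrpl50, with 0.44 (SE 0.24), and Mrpl19, with 0.53 (SE 0.30), and on the lower side to Mrpl44, with -0.34 (SE 0.22), and Mrpl41, with -0.32 (SE 0.23). Leaving out each tumor gave 0.19 to 0.83 for Mrpl19, -0.51 to -0.16 for Mrpl44 and -0.49 to -0.11 for Mrpl41. The 4 IP tumors with PTX against the 4 without it, with NCTD as a term, had a median of 0.07 and 1 member higher at an unadjusted p below 0.05 (1.35%, against 1.56% of all genes). The 4 with NCTD against the 4 without it had a median of 0.03 and none higher (1.17% of all genes).

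**Figure D4:**
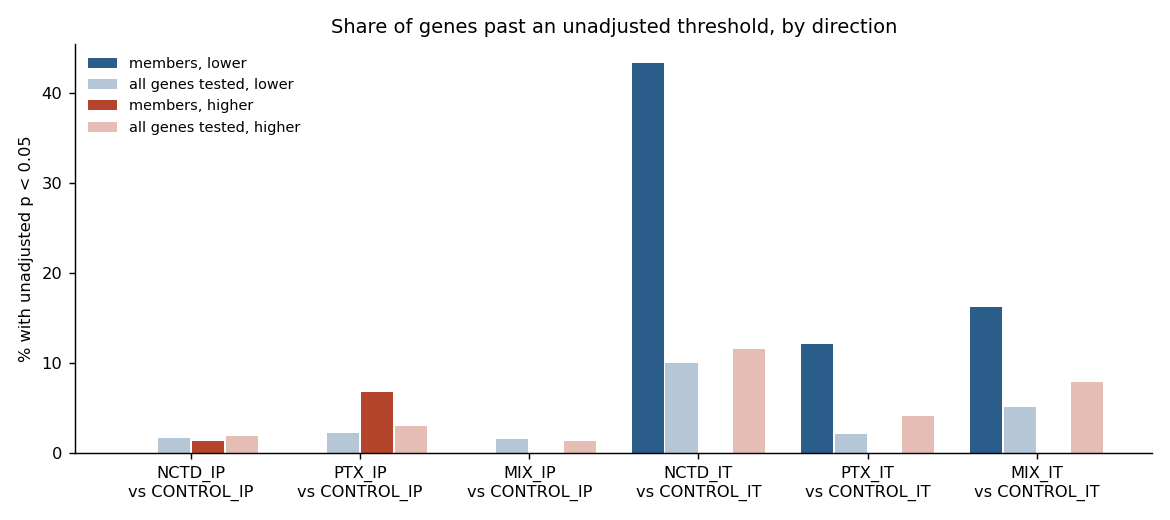
Share of the 74 tested members (dark bars) and of all genes tested (light bars) with an unadjusted p below 0.05 in each comparison with the control of the route, lower in blue and higher in red. The dark blue bars stand at 43.2% for NCTD_IT, 12.2% for PTX_IT and 16.2% for MIX_IT, above the light blue bars, and are absent in the IP arm.

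The difference between routes was tested directly in a model of all 23 tumors, in which 75 members were tested. The NCTD effect was lower in the IT than in the IP arm for 67 members, with a median difference of -0.56 on the log2 scale, and 17 were lower at an unadjusted p below 0.05 (22.7%, against 5.34% of all genes). For PTX the median difference was -0.43 with 12 lower (16%, against 2.64%), and for MIX it was -0.33 with 4 lower (5.33%, against 2.69%) and 1 higher (1.33%, against 4.75%). No member passed the adjusted threshold, the smallest adjusted p being 0.317 (edgeR). For NCTD and PTX these differences contain the IT comparison with CONTROL_IT, in which drug and sex-linked transcripts cannot be told apart. Each difference, that for MIX included, also contains CONTROL_IP, where replicate 2 carried Xist (8.29 CPM) and no treated IP tumor did. With drug as a term, the IT arm against the IP arm had a median of -0.07, 7 members lower (9.33%, against 6.14% of all genes) and 2 higher (2.67%, against 7.33%), and no member passed the adjusted threshold (0.366% of all genes).

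The remaining proteins of the mitochondrial ribosome carry other symbols. Of the 5 on the list, Aurkaip1, a small-subunit protein also known from its binding to Aurora A kinase, passed the adjusted threshold in NCTD_IT, where its log2 fold change was -0.71 (SE 0.17, edgeR adjusted p = 0.0482). Chchd1 had -0.55 (SE 0.21), Dap3, a GTP-binding protein of the small subunit, -0.38 (SE 0.22), Gadd45gip1, of the large subunit, -0.29 (SE 0.24), and Ptcd3, an RNA-binding protein of the small subunit, -0.20 (SE 0.24). The Aurkaip1 call was lost without CONTROL_IT replicate 11 or 12, without NCTD_IT replicate 18, and with Xist as a term. In each of those fits edgeR called 0 genes in all. For NCTD_IT, drug and sex-linked transcripts cannot be told apart for these genes either. In PTX_IT and MIX_IT none passed the adjusted threshold, and Aurkaip1 again had the smallest p in both, with -0.31 (SE 0.18) and -0.46 (SE 0.16).

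Factors that assemble or serve this ribosome held genes on both sides of 0. The median log2 fold change in NCTD_IT was -0.02 over 24 assembly factors, -0.17 over 14 translation factors and -0.02 over 17 mitochondrial tRNA synthetases. In PTX_IT the medians were 0.05, -0.00 and -0.28, and in MIX_IT 0.08, -0.01 and -0.07. At an unadjusted p below 0.05 in NCTD_IT, 5 of 24 assembly factors were higher and none lower, and 2 of 14 translation factors were lower and none higher, where 11.6% of all genes were higher and 10% lower. The genes with the smallest p in NCTD_IT were Mettl15, an rRNA methyltransferase, with 0.69 (SE 0.23), for the assembly factors, and Mrrf, the ribosome recycling factor, with -1.11 (SE 0.35), for the translation factors. In PTX_IT the genes with the smallest p in the 3 lists were Ddx28 with 0.63 (SE 0.28), Mtrf1 with -0.43 (SE 0.36) and Nars2 with 0.63 (SE 0.29), and in MIX_IT Dhx30 with 0.53 (SE 0.17), Tsfm with 0.53 (SE 0.24) and Nars2 with 0.64 (SE 0.27). None of these lists had a gene past the adjusted threshold in any of the 6 comparisons.

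Genes that copy and transcribe mitochondrial DNA and regulators of mitochondrial biogenesis also had no gene past the adjusted threshold. In NCTD_IT the median was -0.25 over 8 genes of the former, led by Polg, the DNA polymerase gamma subunit, with 0.80 (SE 0.22), and 0.18 over 9 of the latter, led by Ppargc1b, a coactivator, with 0.97 (SE 0.31). In PTX_IT Tefm, an elongation factor, had -0.86 (SE 0.24) and Ppargc1b 0.64 (SE 0.33). In MIX_IT Polg had 0.55 (SE 0.22) and Ppargc1a 0.89 (SE 0.32).

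Transcripts of the mitochondrial genome, which this ribosome translates, had values on the opposite side of 0 in most comparisons. In NCTD_IT all 13 protein genes had higher values, with a median log2 fold change of 0.71. At an unadjusted p below 0.05, 10 of them were higher, against 11.6% of all genes. The log2 fold change of mt-Cytb, a subunit of complex III, was 1.14 (SE 0.26, edgeR adjusted p = 0.0444). The ribosomal RNAs that the proteins bind were higher as well, mt-Rnr1 by 1.10 (SE 0.26) and mt-Rnr2 by 1.33 (SE 0.31), both at an edgeR adjusted p of 0.0487. These calls and that of mt-Cytb were lost in fits where edgeR called 0 genes in all. Such were the fits without CONTROL_IT replicate 11 or 12, without NCTD_IT replicate 18, and with Xist as a term. The medians of the 13 protein genes were 0.36 in PTX_IT and 0.43 in MIX_IT. At an unadjusted p below 0.05, 1 and 5 were higher, against 4.18% and 7.88% of all genes. For NCTD_IT and PTX_IT, drug and sex-linked transcripts cannot be told apart here either. In the IP arm the medians were -0.44 in NCTD_IP, -0.55 in PTX_IP and -0.19 in MIX_IP. There 6, 10 and 0 were lower at this p, against 1.67%, 2.3% and 1.55% of all genes.

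The summed CPM of the 13 genes varied widely within NCTD_IT, with 53990 and 55456 CPM in replicates 17 and 18, 22341 CPM in replicate 19 and 37644 CPM in replicate 20. Replicate 19 thus lay within reach of CONTROL_IT, which spanned 22515.5 to 25827 CPM, and it also had the highest sum of ribosomal protein transcripts of its group. MIX_IT spanned 33705 to 52655 CPM, above all CONTROL_IT tumors. Leaving the mitochondrial genome out of the counts and library sizes left the median of the ribosomal protein genes in NCTD_IT at -0.40. In that fit 31 members were lower at an unadjusted p below 0.05 (41.9%, against 10% of all genes).

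**Figure D5:**
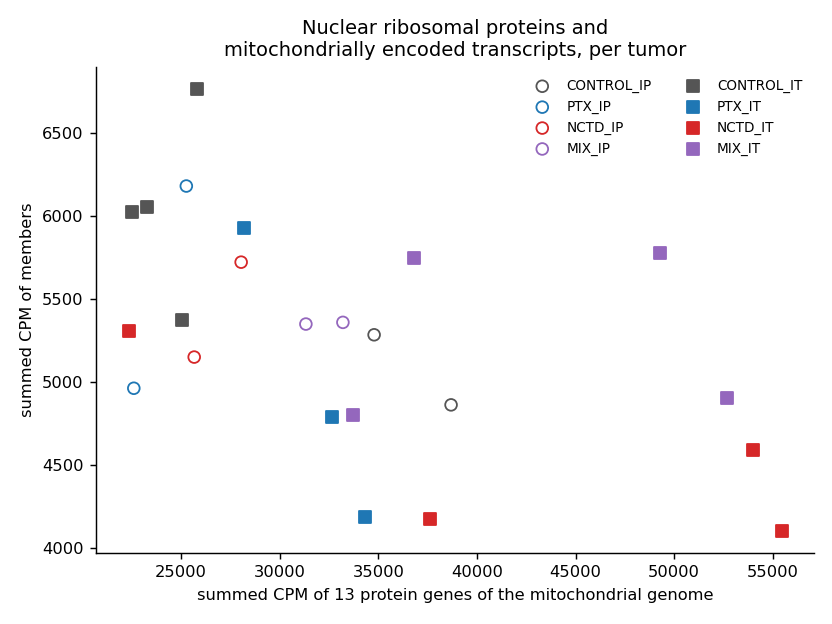
Summed CPM of the ribosomal protein genes (y axis) against the summed CPM of the 13 protein genes of the mitochondrial genome (x axis), 1 point a tumor, with open circles for the IP and filled squares for the IT arm. CONTROL_IT sits at the left with 22515.5 to 25827 CPM on the x axis, and 3 of 4 NCTD_IT tumors sit to its right and below it.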

How the data were processed

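Gene expression was measured by RNA sequencing in 23 mouse tumors, assigned to 8 groups by their labels. The authors prepared 3′ mRNA libraries (Collibri kit), assessed the reads with FastQC, trimmed them with Trimmomatic, aligned them to GRCm39 with STAR 2.7.11b and deposited raw counts of reads per gene without normalization. The strand setting, the treatment of reads with several alignments and the use of molecular identifiers are not given in the sources used here, so overlapping genes and near-identical copies may share reads. The labels do not say more of the tumors than a separate number each, and p-values measure the spread between these samples.

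The deposited counts were fitted with edgeR 4.0.16 under R 4.3.3 by its quasi-likelihood test (two-sided), after TMM scaling and its filterByExpr filter (count 10, total 15), with Benjamini-Hochberg adjustment over all genes. The 4 groups of a route entered 1 model. The study's DESeq2 (1.42.0 here) was an alternative, as were its size factors, no filter, other sets of tumors or genes, Xist as a covariate and leaving out each tumor. Scripts were tested on simulated counts. The depth gives a floor of 3 counts, which covers counting error only.

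The rule for members uses only symbol and gene type and no measured value, but it and the lists were set with earlier results of these data known. Named were members past an adjusted p of 0.05, the 2 with the smallest p in each direction of each comparison with a control, the 3 highest and 3 lowest tested by CPM, and the leading genes of the other lists, 1 of which is not reported here. Start sites and sequences came from the GENCODE annotation and genome of GRCm39, in which all 78 members overlap the deposited gene and 3 have the same ends. Subunits were assigned by symbol, and descent by the standard nomenclature of ribosomal proteins.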

Additional observations from a re-analysis of the deposited data

Results flagged for a closer look

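Single tumors far from the others of their group were looked for in the groups of 4, over the named members and the summed CPM of all members and of each subunit. In 75 such groups of values 2 stood apart, where chance alone gives about 1 in 20. Mrpl1 in replicate 11 of CONTROL_IT lay at 13.4 CPM, against 8.86 to 9.50 CPM in the other controls. Mrpl41 in replicate 17 of NCTD_IT lay at 62.1 CPM, against 37.7 to 41.3 CPM in the other NCTD_IT tumors. No difference between routes passed the adjusted threshold for a member.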

How the results depend on the processing

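Numbers of tumors limit these results, with 2 per IP group, and the sex-linked transcripts coincide with drug in 2 of the 3 IT comparisons. With Xist as a covariate the medians reversed to 0.21 in NCTD_IT and 0.18 in PTX_IT. The same fit gave 0 members past the adjusted threshold in NCTD_IT. At an unadjusted p below 0.05, 2 members in NCTD_IT and 3 in PTX_IT were higher (3.09% and 1.8% of all genes). In MIX_IT 21 were lower (28.4%, against 7.64% of all genes). At the adjusted threshold NCTD_IT gave 10 members with no filter, 14 with all 23 tumors, 12 with only the 2 groups and 18 with DESeq2 (4.43%, 5.8%, 8.4% and 10.6% of all genes). PTX_IT and MIX_IT gave 1 each with no filter (1.32%, against 0.826% and 1.35% of all genes), and MIX_IT gave 1 with DESeq2 (1.33%, against 1.92%). At the unadjusted threshold PTX_IT gave 17 with all 23 tumors, 14 with only the 2 groups and 15 with DESeq2, all lower (3.01%, 3.9% and 1.92% of all genes). The DESeq2 share is over 22457 genes without the low-count filter, against 11411 filtered genes with only the 2 groups, so these shares are not alike. MIX_IT gave 19 with all 23 tumors, 18 lower (24%, against 6.02% of all genes) and 1 higher (9.12% of all genes). The IP members past this threshold were higher. NCTD_IP gave 2 with protein-coding genes alone and 2 with only the 2 groups (1.97% and 2.39% of all genes). PTX_IP gave 3, 2 and 0 with all 23 tumors, only the 2 groups and DESeq2 (1.5%, 1.74% and 0.697%, the last over 21535 genes without the low-count filter). MIX_IP gave 1 with no filter and 1 with only the 2 groups (1.35% and 2.75%). The causes were not tested.

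Leaving out each tumor in turn gave 0 to 2 members past the adjusted threshold in NCTD_IT. It gave 0 without each control except replicate 10, which gave 2 (2.7%, against 1.54% of all genes), and 0 without replicates 17, 18 and 19. At the unadjusted threshold it gave 22 to 40 in NCTD_IT, 4 to 26 in PTX_IT, 8 to 15 in MIX_IT, 2 to 3 in NCTD_IP, 2 to 11 in PTX_IP and 0 to 2 in MIX_IP. In these fits 7.26% to 10.8% of all genes were lower in NCTD_IT, 0.68% to 6.89% in PTX_IT and 3.2% to 6.59% in MIX_IT. In NCTD_IP 1.14% to 2.05% of all genes were higher, in PTX_IP 2.11% to 5.31% and in MIX_IP 0.684% to 1.99%. Without replicate 20 of NCTD_IT, 1 member passed the adjusted threshold (1.35%, against 1.02% of all genes) but Mrps22 did not. Of the values for counts, medians and levels under other settings, 111 kept their side and, within a set tolerance, their size, while 22 moved and 2 reversed. Among single named members, 6 such fits gained a call (4 for Mrpl30 and 1 for Mrps22 in PTX_IT and 1 for Mrpl40 in MIX_IT), and 1, for Mrps22 in NCTD_IT with Xist, lost it.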
